A study of Arabidopsis thaliana with 57 samples.

Results

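The genes described here are 49 Arabidopsis genes whose products build and run the machinery of mitosis and cytokinesis, out of 27655 genes in the deposited count table. The rule that chose them used the known role of their products and no measured value, although it was written with earlier results of these data known. They were divided by role into 16 spindle genes, 13 checkpoint genes, 18 phragmoplast genes and 2 MYB3R regulators. All 49 passed the filter on low counts in every comparison between lines. The question was how the 3 sub-groups of division genes behaved when regulators of the late stomatal lineage were induced for a few hours. The study used 5 inducible lines in the Col-0 background, each carrying FAMAp::LHG4-GR, a dexamethasone (DEX)-activated driver expressed from the FAMA promoter, together with an OPp target that encodes a Venus fusion. In the control line the target was a nuclear localization signal (NLS), and in the others it was FAMA or SPCH, alone or as SRDX-FAMA or SRDX-SPCH. SPCH starts the stomatal lineage, FAMA acts at its end in the guard mother cell (GMC) and guard cell (GC), and SRDX is a repression domain that turns a factor into a dominant repressor. DEX was given at 30 µM to seedlings 10 days after germination, and true leaves were collected after 2, 3 or 4 h. The leaves were then protoplasted for 2 h and Venus-positive cells were sorted. The control line carried the same driver and received the same DEX. NLS, FAMA and SRDX-SPCH had 11 libraries each, and SPCH and SRDX-FAMA had 12 each, with 3 or 4 per line and time point.

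At mitosis, kinesin motors and microtubule-binding proteins arrange microtubules into a bipolar spindle, and Aurora kinases control their attachment to kinetochores. The spindle assembly checkpoint (MAD2, BUBR1 and BUB3) holds back the anaphase-promoting complex (APC/C) until chromosomes are attached. CDC20 and CCS52 proteins then activate the APC/C, which marks mitotic cyclins for destruction. Plant cells divide by building a cell plate inside the phragmoplast, a microtubule array whose outward growth is driven by NACK kinesins and a mitogen-activated protein kinase (MAPK) cascade. Many of these genes peak together at G2 and M phase under MYB3R transcription factors, which bind the mitosis-specific activator motif with the core AACGG. In the stomatal lineage a GMC divides once, symmetrically, into the pair of GCs.

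The libraries held 7296381 to 60348384 counts, with a median of 33317326, and 29128167 to 60348384 in the control line. Levels below are given as CPM, that is counts scaled to library size, with TMM factors taken over the 57 libraries. The library labelled SRDX-FAMA 4 h replicate 2, with 8013817 counts, went against its label. Its SPCH level was 9663 CPM and its FAMA level 345 CPM, whereas the other 11 SRDX-FAMA libraries had 14.4 to 43.9 CPM of SPCH and 2181 to 6172 CPM of FAMA. Values of the SRDX-FAMA line include it unless stated. Without it, no fold change of a member against NLS moved by more than 0.101 (log2) and none against FAMA by more than 0.105. No call was lost, and AUR1, AT3G44050 and AT3G20150 gained one, as lower in SRDX-FAMA than in NLS. Counts of called members, the order of the lines and separations that rest on it are given with and without it. Calls on the markers and other gene lists include it and were not repeated without it. FAMA 3 h replicate 3 had 280 CPM of SPCH, against 5.61 to 25.3 in the other FAMA libraries. The study describes the sorted cells as mainly GMCs and GCs with some myrosin cells, and reasons that the NLS sort could have held more cells of weak Venus signal. Its ground was that genes lower than NLS, with SPCH as well as FAMA, were enriched in division terms. For SPCH the study had not foreseen this. It then took its targets from changes over time and from SPCH against FAMA, without the NLS reference. In bulk libraries, fewer dividing cells and less RNA of a gene per dividing cell cannot be told apart. The line and the composition of its sort cannot be told apart either. Cell type markers are given below for each comparison of lines, and their part in the results was not tested. Nothing in the labels states that replicates came from separate plantings, so p-values measure the spread between these libraries.

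The stretch of 250 bases before the annotated start of each gene was searched for AACGG on both strands, because this core is the textbook binding motif of the MYB3R regulators. Positions and sequences are those of RefSeq for the TAIR10.1 build, in which all 49 genes were matched. The motif was present before 26 of the 49 members (53.1%), against 5645 of 27443 protein-coding genes (20.6%). It occurred at least 2 times before 11 members (22.4%), against 3.62% of all protein-coding genes. By sub-group it was found before 9 of 16 spindle genes, 7 of 13 checkpoint genes, 9 of 18 phragmoplast genes and 1 of the 2 regulators. The following promoters show 1 member of each sub-group that was called lower in the FAMA line and has the motif, 1 kinesin-12 gene with 3 motifs, and 2 genes without it, the most reduced member (ATK1) and one that was not called (MPK4). Motif-bearing examples were picked to show the motif. Without it in this window, but more reduced in FAMA than BUB3.1, were ATK1, ATK5, EB1C, AT2G36200 and AUR3. So were BUBR1, CDC20.1, MKK6, POK1, AT3G44050, AT3G20150 and RUNKEL. Each is printed 5′ to 3′ on the strand of the gene, and capitals mark AACGG or, for a motif on the other strand, CCGTT.
ZCF125 (AT1G59540), a spindle kinesin, chr1:21873762-21874011, plus strand: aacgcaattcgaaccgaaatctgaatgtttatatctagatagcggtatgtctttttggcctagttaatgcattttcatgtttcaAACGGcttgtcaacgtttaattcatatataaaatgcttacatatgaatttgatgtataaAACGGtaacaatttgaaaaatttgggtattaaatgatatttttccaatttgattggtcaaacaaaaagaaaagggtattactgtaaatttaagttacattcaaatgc
BUB3.1 (AT3G19590), a checkpoint protein, chr3:6805372-6805621, plus strand: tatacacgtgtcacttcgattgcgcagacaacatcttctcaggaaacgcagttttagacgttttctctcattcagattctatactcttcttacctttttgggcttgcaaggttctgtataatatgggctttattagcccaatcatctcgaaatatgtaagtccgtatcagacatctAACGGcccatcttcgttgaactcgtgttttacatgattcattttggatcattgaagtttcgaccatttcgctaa
DRP5A (AT1G53140), a cell plate dynamin, chr1:19798938-19799187, plus strand: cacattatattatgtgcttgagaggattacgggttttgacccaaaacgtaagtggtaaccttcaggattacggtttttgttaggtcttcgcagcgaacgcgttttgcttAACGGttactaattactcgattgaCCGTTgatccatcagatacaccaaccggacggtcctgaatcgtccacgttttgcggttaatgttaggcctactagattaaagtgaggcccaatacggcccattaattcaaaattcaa
MYB3R4 (AT5G11510), a regulator, chr5:3679498-3679747, plus strand: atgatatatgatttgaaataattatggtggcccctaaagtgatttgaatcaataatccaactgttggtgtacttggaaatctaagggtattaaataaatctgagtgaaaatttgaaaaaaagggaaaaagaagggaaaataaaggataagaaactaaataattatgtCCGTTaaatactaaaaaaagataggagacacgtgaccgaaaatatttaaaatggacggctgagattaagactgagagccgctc
PAKRP1L (AT3G23670), a kinesin-12 motor, chr3:8518886-8519135, plus strand: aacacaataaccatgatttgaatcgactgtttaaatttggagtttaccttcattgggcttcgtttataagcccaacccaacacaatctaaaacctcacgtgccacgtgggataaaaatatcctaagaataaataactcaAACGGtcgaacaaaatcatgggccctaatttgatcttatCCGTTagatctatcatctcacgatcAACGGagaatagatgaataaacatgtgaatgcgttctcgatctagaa
ATK1 (AT4G21270), a kinesin-14 motor, chr4:11334169-11334418, minus strand: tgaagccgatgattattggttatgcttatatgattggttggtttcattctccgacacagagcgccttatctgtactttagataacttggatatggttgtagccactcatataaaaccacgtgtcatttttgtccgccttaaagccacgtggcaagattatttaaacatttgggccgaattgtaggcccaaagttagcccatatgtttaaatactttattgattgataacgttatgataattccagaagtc
MPK4 (AT4G01370), a kinase of the cascade, chr4:566667-566916, plus strand: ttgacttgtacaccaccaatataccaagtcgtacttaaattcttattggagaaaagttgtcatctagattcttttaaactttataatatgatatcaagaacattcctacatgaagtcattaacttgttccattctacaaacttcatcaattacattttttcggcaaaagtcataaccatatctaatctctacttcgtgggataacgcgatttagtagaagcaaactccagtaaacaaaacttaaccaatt

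The motifs of ZCF125 began 166 and 107 bases before the start, those of DRP5A 141 and 117, those of PAKRP1L 111, 72 and 47, and the single motifs of BUB3.1 and MYB3R4 74 and 83 bases before it. Among the 38 members that were lower in the FAMA line than in NLS (below), 22 (57.9%) had the motif, and among the other 11 members 4 had it (36.4%). The kinesin ATK1, which had the largest difference of all members in the FAMA line, had no match in this window. A match is a description of these letters and was not tested as a binding site.

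Levels in the control line differed widely between members. Per kilobase of exon, the highest was MPK4 with 81.4 ± 17.5 CPM per kb (SD, n = 11), followed by the APC/C activator CCS52B (29.8 ± 7.91) and the cytokinesis syntaxin KNOLLE (18.6 ± 5.68). CCS52B was above MYB3R1 (17.2 ± 2.01), whereas KNOLLE, MYB3R1 and AUR1 (16.3 ± 5.18) lay within their spread of each other. The lowest were the APC/C inhibitor UVI4 (0.666 ± 0.193) and the centromeric histone CENH3 (0.823 ± 0.118). All members had counts in the control line.

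Most of the division genes were lower in the FAMA line than in the control. Against NLS, 38 of 49 members were lower and 0 were higher at a Benjamini-Hochberg adjusted p of 0.05 over all genes in the quasi-likelihood test of edgeR (termed called). Among all genes tested, 5.47% were called lower and 1.95% higher. The median log2 fold change of the members was −1.75, against 0.04 or less in size for all genes tested in every comparison of lines. The sub-group medians were lowest for spindle genes (15 of 16 called lower, median −2.77), followed by phragmoplast genes (14 of 18, −1.81) and checkpoint genes (8 of 13, −1.21). The SPCH line showed the same direction with smaller sizes. There, 39 members were called lower (background 4.13%) and 1 higher (background 2.71%), with a median of −1.13.

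In the SRDX-FAMA line 21 members were called lower than NLS (background 1.32%) and 0 higher (background 0.929%), with a median of −0.63. Without the library that went against its label, 24 were called lower with a median of −0.64. In the SRDX-SPCH line 0 members were called in either direction (background 0.968% lower and 1.7% higher). The 0 depends on the fit, since 9 members were called lower when the letter of the library name entered the fit as a block, among them AT2G36200 (adjusted p = 0.00469), BUB3.1 (0.0121) and ATK1 (0.0270). In the unblocked fit, 47 of the 49 fold changes were below 0 and the median was −0.34. In that fit 14 members had an unadjusted edgeR p under 0.05 (12.9% of all genes tested). The smallest edgeR adjusted p in that comparison was 0.0903, for the kinetochore protein CENP-C. DESeq2 called 3 members lower there, namely CENP-C, AT2G36200 and MKK6. The share of all genes called was not computed for DESeq2 or for the block fit. The comparisons with NLS share the same 11 control libraries, so their values are given side by side and not as independent evidence.

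**Figure D1:**
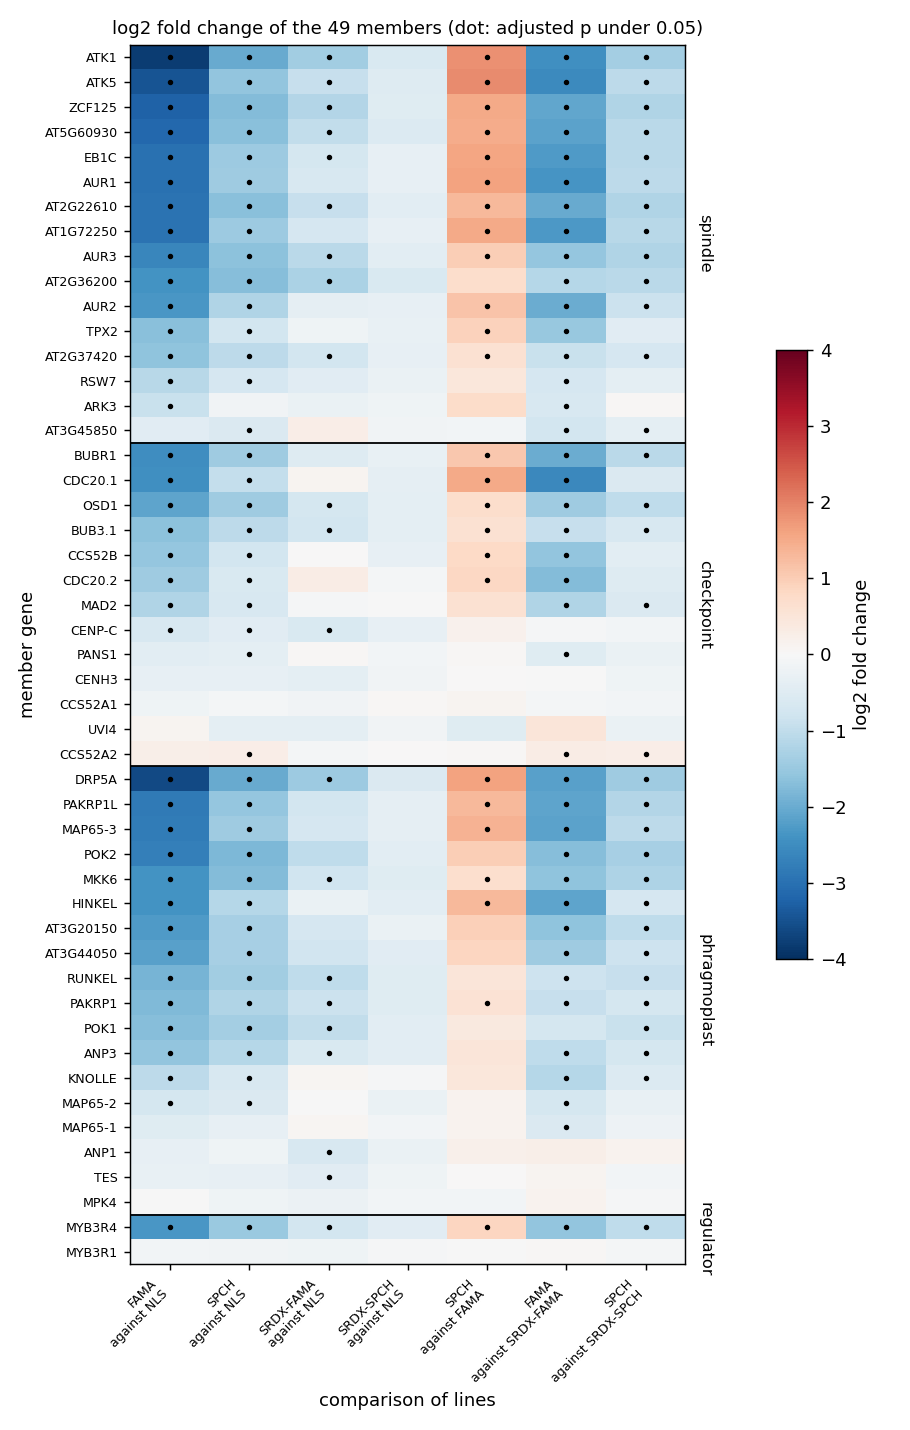
Log2 fold change of each of the 49 members (rows, by sub-group) in 7 comparisons of lines (columns), with blue for lower, red for higher and a dot where the adjusted p is under 0.05. The FAMA column is the darkest blue (38 dots), the SRDX-SPCH column against NLS is pale with 0 dots, and the column of SPCH against FAMA is red for most spindle genes (12 of 16 with a dot).

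Over the 5 lines, the mean CPM of 28 of the 49 members fell in the order NLS, SRDX-SPCH, SRDX-FAMA, SPCH, FAMA. The order is that of the mean level of the members in these same libraries, so the count describes it and tests nothing. The share of all genes in this order, or with FAMA lowest or NLS highest, was not computed. This order held for 13 of 16 spindle genes, 11 of 18 phragmoplast genes, 3 of 13 checkpoint genes and 1 of the 2 regulators. FAMA had the lowest mean of the 5 lines for 42 members and NLS the highest for 39. Without the library that went against its label, the order held for 28 members (12 spindle, 11 phragmoplast and 4 checkpoint genes and 1 regulator), FAMA was lowest for 41 and NLS highest for 38. Averaged over the spindle genes of each library, the level was 4.38 ± 0.36 log2 CPM in NLS (SD, n = 11), 3.93 ± 0.52 in SRDX-SPCH (n = 11), 3.67 ± 0.40 in SRDX-FAMA (n = 12), 3.08 ± 0.39 in SPCH (n = 12) and 1.94 ± 0.53 in FAMA (n = 11). Without that library the SRDX-FAMA mean was 3.65 ± 0.41 (n = 11). NLS and SRDX-SPCH, and likewise SRDX-SPCH and SRDX-FAMA, differed by less than the SD of SRDX-SPCH. The phragmoplast mean went from 4.40 ± 0.30 in NLS to 2.65 ± 0.37 in FAMA, and the checkpoint mean from 3.11 ± 0.23 to 2.01 ± 0.19.

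**Figure D2:**
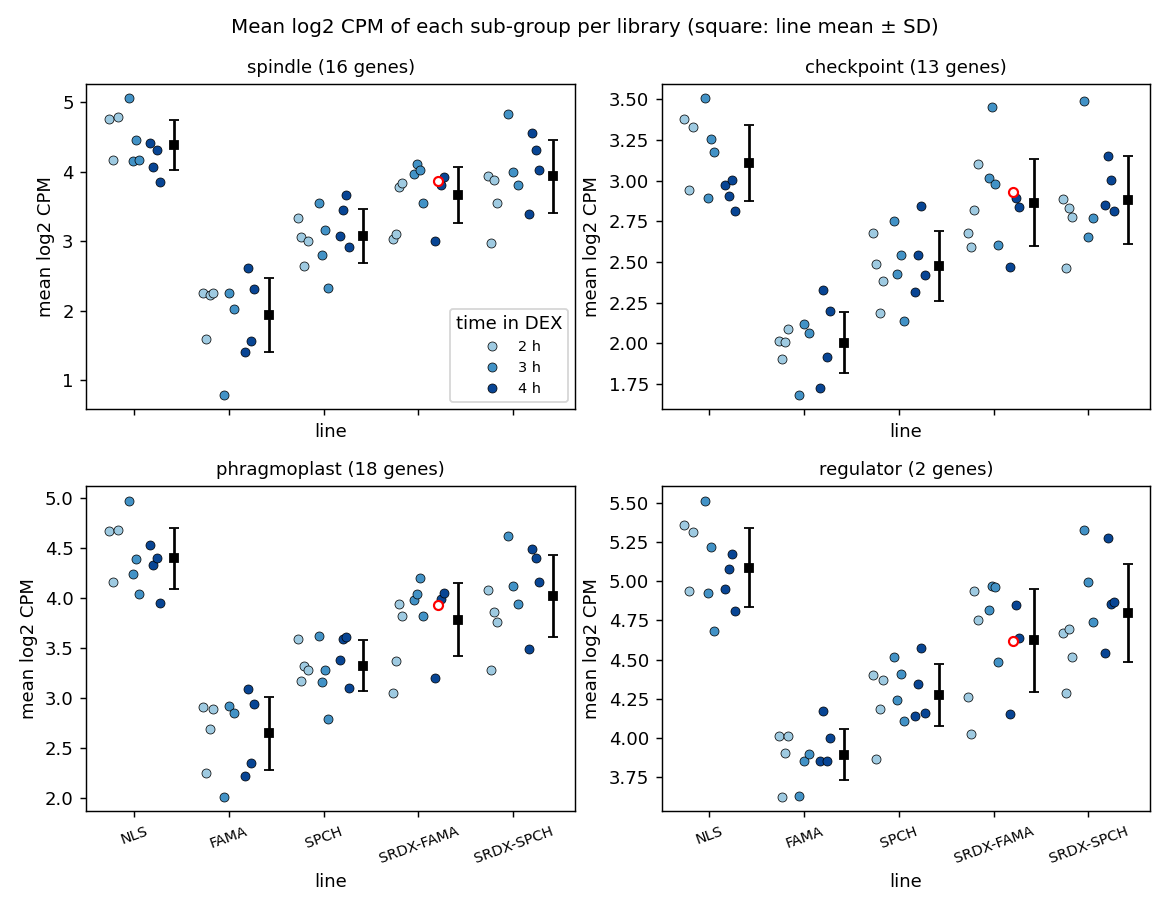
Mean log2 CPM of each sub-group in each library, by line, where each point is 1 library shaded by time in DEX, the square and bar are the line mean and SD, and the white point with a red outline is the library labelled SRDX-FAMA 4 h replicate 2. The vertical axes differ between panels and do not start at 0. The spindle panel runs from a mean of 4.38 in NLS to 1.94 in FAMA, and the checkpoint panel from 3.11 to 2.01.

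Minus-end-directed kinesins of the kinesin-14 family, which gather and cross-link spindle microtubules, had the lowest median of the families. All 4 were called lower in FAMA (median −3.20, from −3.80 to −2.94) and in SPCH (median −1.62). ATK1 (AT4G21270), which focuses spindle poles, had 13.4 to 34.5 CPM in NLS (median 20.7) but 0.295 to 2.34 CPM in FAMA (median 1.26). Its level was 1.96 to 8.70 CPM in SPCH (median 5.01), 3.53 to 12.1 in SRDX-FAMA (median 8.78) and 5.16 to 27.8 in SRDX-SPCH (median 11.46). Every FAMA, SPCH and SRDX-FAMA library lay below every NLS library, while SRDX-SPCH overlapped NLS. The log2 fold change against NLS was −3.80 ± 0.26 (SE, adjusted p = 7.88e-10) with FAMA and −2.01 ± 0.20 (7.11e-07) with SPCH. For the repressor forms it was −1.38 ± 0.20 (2.55e-04, SRDX-FAMA) and −0.60 ± 0.24 (0.239, SRDX-SPCH). ATK5 (AT4G05190), which works at the spindle midzone, went from 19.7 to 61.2 CPM in NLS (median 31.6) to 0.675 to 6.34 in FAMA (median 3.20), a change of −3.44 ± 0.29 (adjusted p = 2.33e-08). The kinesin-14 motors AT1G72250 and AT2G22610 changed by −2.94 ± 0.29 and −2.95 ± 0.28 in FAMA.

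Kinesin-5 motors, which push antiparallel microtubules apart, were less uniform. AT2G36200 had 16.2 to 34.4 CPM in NLS (median 25.8), 2.36 to 6.60 in FAMA (median 4.87), 4.00 to 11.7 in SPCH (median 7.28) and 5.77 to 15.5 in SRDX-FAMA (median 10.0). Its groups of FAMA, SPCH and SRDX-FAMA libraries did not overlap NLS, and its fold changes were −2.40 ± 0.17 (adjusted p = 9.02e-10), −1.70 ± 0.17 (5.25e-07) and −1.28 ± 0.16 (2.86e-05). RSW7 (AT2G28620) changed by −1.11 ± 0.12 in FAMA and AT2G37420 by −1.61 ± 0.17, both called. AT3G45850 had 14.2 to 31.5 CPM in NLS and 8.35 to 28.0 in FAMA, which overlapped, and was the 1 spindle gene not called in FAMA (−0.45 ± 0.16, adjusted p = 0.110). In SPCH it was called lower (−0.56 ± 0.13, adjusted p = 0.00924).

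Among the remaining spindle motors, the kinesin-7 gene ZCF125 had 14.2 to 36.5 CPM in NLS (median 18.9), 1.08 to 3.72 in FAMA (median 2.13) and 2.75 to 11.2 in SPCH (median 6.0). Neither induced group overlapped NLS (−3.22 ± 0.22, adjusted p = 9.02e-10, and −1.73 ± 0.21, 5.67e-06). The kinesin-4 gene AT5G60930 fell from 27.8 to 74.2 CPM in NLS to 1.27 to 8.99 in FAMA (−3.13 ± 0.29, adjusted p = 9.02e-08). EB1C (AT5G67270), which tracks growing microtubule ends, fell from 7.60 to 17.9 CPM to 0.169 to 2.56 (−2.98 ± 0.27, 5.52e-08). TPX2 (AT1G03780), a spindle assembly factor and Aurora activator, was 11.7 to 44.3 CPM in NLS and 4.32 to 14 in FAMA, so its groups overlapped although the change was called (−1.67 ± 0.23, 2.89e-05). ARK3 (AT1G12430), an armadillo repeat kinesin of the preprophase band, had one of the smallest called changes in FAMA (−0.89 ± 0.13, adjusted p = 9.22e-05), and its value in SPCH was −0.15 ± 0.20 (0.802). The study picked ARK3 as a candidate on these libraries, so its direction is not independent evidence.

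The 3 Aurora kinases were all called lower in FAMA and SPCH (medians −2.61 and −1.41). AUR1 (AT4G32830) and AUR2 (AT2G25880), the alpha Auroras of the spindle, changed by −2.98 ± 0.23 and −2.32 ± 0.18 in FAMA. AUR3 (AT2G45490), the beta Aurora of centromeres, had 4.01 to 7.77 CPM in NLS (median 5.80), 0.337 to 1.31 in FAMA (median 0.951) and 1.02 to 2.61 in SPCH (median 1.71). All FAMA and SPCH libraries were below all NLS libraries for AUR3 (−2.61 ± 0.19, adjusted p = 3.01e-09, and −1.65 ± 0.18, 1.56e-06). It was also called lower in SRDX-FAMA (−1.07 ± 0.18, adjusted p = 9.40e-04), where AUR1 was −0.63 ± 0.18 (0.0679) with all libraries and −0.67 ± 0.18 (0.0421) without the library that went against its label.

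**Figure D3:**
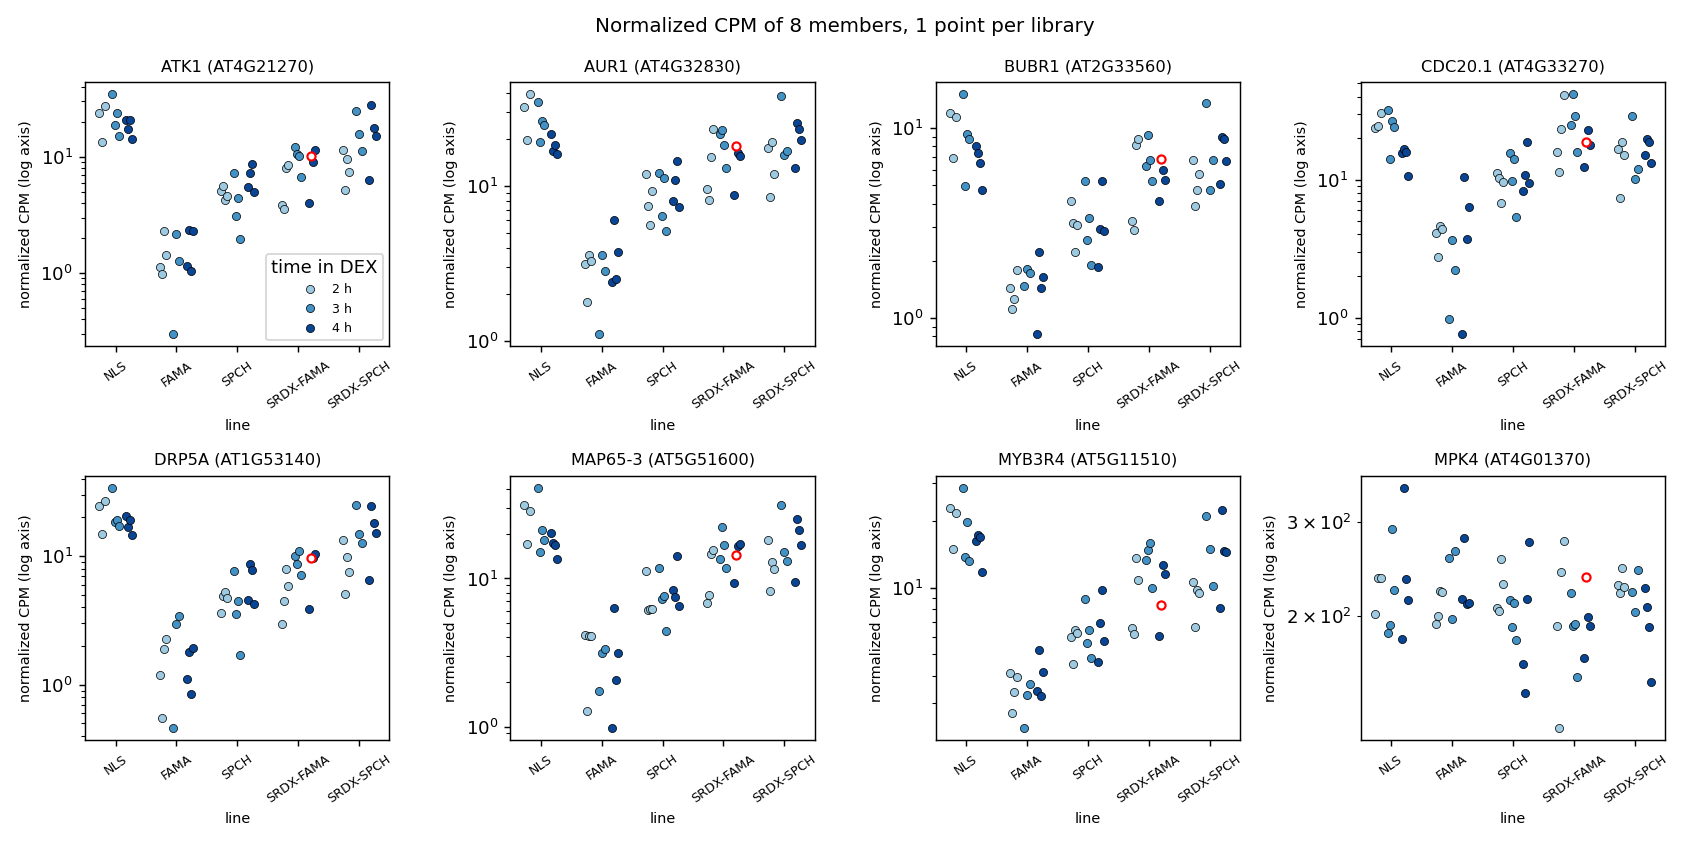
Normalized CPM, on a log axis, of 8 members in each library, by line and shaded by time in DEX, where the white point with a red outline marks the SRDX-FAMA library that went against its label. The FAMA libraries of ATK1 (0.295 to 2.34 CPM) sit below all NLS libraries (13.4 to 34.5 CPM), whereas for MPK4 the FAMA libraries (193 to 280 CPM) lie within the NLS range of 181 to 349 CPM.

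Checkpoint genes were less uniform than spindle genes, with calls and no calls within most functional classes. The 3 proteins of the checkpoint itself were called lower in both FAMA and SPCH. BUB3.1 had 15.2 to 24.3 CPM in NLS (median 18.4), 4.35 to 7.48 in FAMA (median 6.19), 6.39 to 11.7 in SPCH (median 9.04), 8.28 to 15.5 in SRDX-FAMA (median 10.4) and 9.04 to 22.2 in SRDX-SPCH (median 13.6). The FAMA and SPCH groups did not overlap NLS, whereas both SRDX groups did. The overlap of SRDX-FAMA rested on the library that went against its label (15.5 CPM), and without it the highest SRDX-FAMA library had 14.8 CPM, below the lowest of NLS. Its fold changes were −1.65 ± 0.11 (adjusted p = 3.50e-10) with FAMA, −1.05 ± 0.11 (1.63e-06) with SPCH, −0.74 ± 0.11 (2.55e-04) with SRDX-FAMA and −0.39 ± 0.14 (0.175) with SRDX-SPCH. BUBR1 (AT2G33560) fell from 4.69 to 15 CPM in NLS to 0.820 to 2.22 in FAMA (−2.47 ± 0.20, adjusted p = 7.90e-09). MAD2 (AT3G25980) had 3.34 to 8.22 CPM in NLS and 0.970 to 4.83 in FAMA, overlapping groups with a called change of −1.21 ± 0.27 (adjusted p = 0.00532). Of the centromere proteins, CENP-C (AT1G15660) was called lower in FAMA, SPCH and SRDX-FAMA at similar sizes (−0.63 ± 0.10, −0.46 ± 0.10 and −0.61 ± 0.09), and CENH3 (AT1G01370) was not called in any line (−0.34 ± 0.16 in FAMA, adjusted p = 0.237).

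The activators of the APC/C went different ways. CDC20.1 (AT4G33270), the mitotic activator, had 10.7 to 32.1 CPM in NLS (median 23.6) and 0.754 to 10.5 in FAMA (median 3.69), without overlap (−2.44 ± 0.34, adjusted p = 2.68e-05). In SRDX-FAMA it had 11.4 to 41.5 CPM (median 20.8), and the change was 0.10 ± 0.19 (adjusted p = 0.942). CDC20.2 (AT4G33260) changed by −1.42 ± 0.24 in FAMA. However, 33.2% and 36.3% of the 50-base exon sequences of CDC20.1 and CDC20.2 are found elsewhere in the genome. How reads from such sequences were counted is not stated. CCS52B (AT5G13840) had 35.3 to 81.6 CPM in NLS (median 57.2) and 11.53 to 29.3 in FAMA (median 20.18), without overlap, and 36.7 to 92.8 in SRDX-FAMA (median 55.0). Its change was −1.54 ± 0.16 (adjusted p = 4.40e-07) in FAMA and 0.01 ± 0.16 (0.998) in SRDX-FAMA. CCS52A1 (AT4G22910), an activator known for endoreduplication, was not called in any line (−0.17 ± 0.12 in FAMA, adjusted p = 0.520).

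CCS52A2 (AT4G11920), the other CCS52A gene, was the 1 member with a call above NLS. It had 14.7 to 22.0 CPM in NLS (median 17.4), 17.5 to 23.9 in FAMA (median 20.3) and 15.7 to 23.8 in SPCH (median 21.5). The groups overlapped and the differences were small, at 0.28 ± 0.08 (adjusted p = 0.0280) in SPCH and 0.24 ± 0.08 (0.0624) in FAMA. The SPCH call was lost without SPCH 3 h replicate 4, SPCH 4 h replicate 1 or SPCH 4 h replicate 4. Among inhibitors of the APC/C, OSD1 (AT3G57860) had 9.16 to 18.2 CPM in NLS (median 11.9), 2.17 to 3.88 in FAMA (median 2.85) and 2.69 to 7.10 in SPCH (median 4.55). Both induced groups lay below NLS without overlap (−2.12 ± 0.14, adjusted p = 5.01e-10, and −1.43 ± 0.17, 5.61e-06). PANS1 (AT3G14190), a protector of cohesion, was −0.42 ± 0.13 (adjusted p = 0.0518) in FAMA, and UVI4 (AT2G42260) was 0.12 ± 0.21 (0.849).

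In the phragmoplast sub-group, the cascade that expands the array passed the test at some steps and not at others. MKK6 (AT5G56580), the MAPK kinase, had the smallest adjusted p of all members. Its level was 9.52 to 14.7 CPM in NLS (median 11.2), 1.05 to 3.22 in FAMA (median 2.56), 2.14 to 5.25 in SPCH (median 3.66), 3.62 to 10.6 in SRDX-FAMA (median 7.24) and 4.72 to 15 in SRDX-SPCH (median 8.39). FAMA and SPCH did not overlap NLS, and the changes were −2.40 ± 0.14 (adjusted p = 1.24e-10), −1.74 ± 0.14 (2.77e-08), −0.79 ± 0.14 (0.00148) and −0.47 ± 0.15 (0.0988) in the same order. The NACK1 kinesin HINKEL (AT1G18370), which activates the cascade, went from 10.9 to 40.0 CPM in NLS to 1.31 to 8.81 in FAMA (−2.39 ± 0.27, adjusted p = 1.97e-06). The MAPKKK ANP3 (AT3G06030) went from 8.23 to 15.2 CPM to 3.07 to 4.86 (−1.59 ± 0.12, 7.44e-09), also without overlap.

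The other 3 members of the cascade were not called in FAMA or SPCH. MPK4, the MAPK at its end, which also serves in immunity, had 181 to 349 CPM in NLS (median 224) and 193 to 280 in FAMA (median 215), with a change of −0.03 ± 0.11 (adjusted p = 0.923). The MAPKKK ANP1 (AT1G09000) and the NACK2 kinesin TES (AT3G43210) were −0.33 ± 0.14 (adjusted p = 0.196) and −0.31 ± 0.11 (0.108) in FAMA. Both were called lower in SRDX-FAMA, at −0.63 ± 0.14 (adjusted p = 0.0138) and −0.44 ± 0.11 (0.0388). In the direct test of FAMA against SRDX-FAMA, ANP1 was 0.25 ± 0.14 (adjusted p = 0.30) and TES 0.11 ± 0.10 (0.593), so a difference between these lines is not shown.

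The kinesin-12 motors were uniform, with 6 of 6 called lower in FAMA (median −2.21, from −2.84 to −1.69) and 6 of 6 in SPCH (median −1.34). Of this family, the PAKRP1 proteins organise the phragmoplast midline and the POK proteins mark the division zone. PAKRP1 (AT4G14150) and PAKRP1L changed by −1.75 ± 0.15 and −2.84 ± 0.31 in FAMA, and POK1 (AT3G17360) and POK2 (AT3G19050) by −1.69 ± 0.26 and −2.72 ± 0.29. AT3G44050 changed by −2.17 ± 0.26 and AT3G20150 by −2.25 ± 0.28. The microtubule crosslinkers of the MAP65 family differed among themselves. MAP65-3 (AT5G51600), the crosslinker of the phragmoplast midzone, had 13.5 to 41.1 CPM in NLS and 0.984 to 6.37 in FAMA, without overlap (−2.80 ± 0.27, adjusted p = 1.73e-07). MAP65-2 (AT4G26760) changed by −0.70 ± 0.15 (adjusted p = 0.00300), and MAP65-1 (AT5G55230) was −0.49 ± 0.16 (0.0657).

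Among cell plate proteins, DRP5A, a dynamin-related protein, had the largest change of the phragmoplast genes. It had 14.5 to 34.0 CPM in NLS (median 19.0), 0.464 to 3.42 in FAMA (median 1.81), 1.71 to 8.70 in SPCH (median 4.66), 2.95 to 11 in SRDX-FAMA (median 8.34) and 5.03 to 24.9 in SRDX-SPCH (median 13.4). FAMA, SPCH and SRDX-FAMA lay wholly below NLS, with changes of −3.60 ± 0.27 (adjusted p = 3.36e-09), −2.02 ± 0.21 (8.52e-07) and −1.46 ± 0.19 (8.16e-05). RUNKEL (AT5G18700), a kinase-like protein of cytokinesis, went from 14 to 33.5 CPM in NLS to 4.73 to 8.63 in FAMA (−1.86 ± 0.15, adjusted p = 1.03e-08). KNOLLE (AT1G08560), the syntaxin that fuses vesicles into the plate, had 15.3 to 39.6 CPM in NLS and 10.0 to 19.1 in FAMA, which overlapped (−1.05 ± 0.16, adjusted p = 7.24e-05). In SRDX-FAMA it was 17 to 40.1 CPM (0.08 ± 0.17, adjusted p = 0.951).

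Of the MYB3R regulators, MYB3R4 (activator of G2/M genes) changed and MYB3R1 (AT4G32730, which can activate or repress them) did not pass the test in any line. MYB3R4 had 11.9 to 28.5 CPM in NLS (median 17), 2.32 to 5.21 in FAMA (median 3.41), 4.53 to 9.74 in SPCH (median 6.10), 6.05 to 16.0 in SRDX-FAMA (median 11.2) and 6.63 to 22.5 in SRDX-SPCH (median 10.6). FAMA and SPCH did not overlap NLS, with changes of −2.33 ± 0.16 (adjusted p = 7.88e-10) and −1.5 ± 0.15 (8.36e-07). MYB3R1 had 49.7 to 76.7 CPM in NLS (median 66.0) and 55.1 to 65.4 in FAMA (median 62.7), a difference of −0.11 ± 0.07 (adjusted p = 0.434).

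Complete separation from the control was common in FAMA. Every FAMA library was below every NLS library for 30 of 49 members, against 0.944% of all genes tested. This held for 17 members in SPCH (background 0.431%), for 3 in SRDX-FAMA, namely ATK1, AT2G36200 and DRP5A (background 0.156%), to which BUB3.1 is added when the library that went against its label is left out (4 members, background 0.268%), and for 0 in SRDX-SPCH (background 0.0286%).

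Direct comparison of the induced lines leaves out the NLS libraries. Against FAMA, SPCH was higher for 25 members and lower for 0 (background 0.855% higher and 0.713% lower), with a median of 0.71. Spindle genes made up 12 of the 25 (median over the sub-group 1.22), and 6 checkpoint and 6 phragmoplast genes (medians 0.61 and 0.52) and MYB3R4 were the others. All 4 kinesin-14 genes were called higher, led by ATK5 (1.89 ± 0.28, adjusted p = 7.62e-04) and ATK1 (1.83 ± 0.25, 3.78e-04). All 3 Aurora genes were called, with AUR1 at 1.60 ± 0.22 (adjusted p = 3.29e-04), AUR2 at 1.13 ± 0.21 and AUR3 at 0.97 ± 0.23. The other called spindle genes were EB1C (1.56 ± 0.27), ZCF125 (1.51 ± 0.24), AT5G60930 (1.49 ± 0.28), TPX2 (0.94 ± 0.21) and AT2G37420 (0.61 ± 0.14).

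Among checkpoint genes the differences between SPCH and FAMA were 1.52 ± 0.31 for CDC20.1, 1.09 ± 0.20 for BUBR1, 0.83 ± 0.21 for CDC20.2, 0.81 ± 0.15 for CCS52B, 0.71 ± 0.17 for OSD1 and 0.61 ± 0.11 for BUB3.1. Among phragmoplast genes they were 1.61 ± 0.30 for DRP5A, 1.40 ± 0.26 for MAP65-3, 1.30 ± 0.29 for PAKRP1L, 1.29 ± 0.24 for HINKEL, 0.67 ± 0.17 for MKK6 and 0.57 ± 0.12 for PAKRP1. MYB3R4 was higher by 0.84 ± 0.14 (adjusted p = 0.00259). The calls of MKK6 (adjusted p = 0.0371), CDC20.2 (0.0426) and OSD1 (0.0256) were lost when single libraries were left out, as detailed in the closing section. Those of AUR3 and AT2G37420 were also lost in this way, and those of TPX2, PAKRP1 and PAKRP1L in other fits. Of the cell type markers, the myrosin genes TGG1 (0.58 ± 0.13, adjusted p = 0.0173) and TGG2 (1.68 ± 0.20, 6.28e-05) and 3 of 10 meristemoid and GMC markers (median 0.56) were also called higher in SPCH than in FAMA.

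Each factor was then set against its own repressor form. FAMA was lower than SRDX-FAMA for 39 members (background 8.82%) and higher for 1 (background 4.33%), with a median of −1.42. Without the library that went against its label there were 39 lower and 1 higher, with a median of −1.34. All 16 spindle genes were called lower, led by ATK5 (−2.54 ± 0.28, adjusted p = 3.02e-06), together with 8 checkpoint genes, 14 phragmoplast genes and MYB3R4 (−1.59 ± 0.18, 3.37e-06). The largest change of a checkpoint gene was that of CDC20.1 (−2.56 ± 0.35, adjusted p = 2.70e-05), and CENP-C, lower in both lines against NLS, was −0.04 ± 0.10 (0.836). Of the cell type markers, 3 of 10 meristemoid and GMC markers were called lower (median −0.52), and TGG1 (0.74 ± 0.17, adjusted p = 0.00518), TGG2 (1.64 ± 0.46, 0.0184) and 2 of 12 mature GC markers were called higher. Calls near the threshold were those of AT3G45850 (−0.73 ± 0.20, adjusted p = 0.0171), MAP65-1 (−0.57 ± 0.16, 0.0193) and PANS1 (−0.49 ± 0.15, 0.0258). CCS52A2 was the 1 member called higher (0.28 ± 0.09, adjusted p = 0.0298), and lost its call without FAMA 2 h replicate 3, SRDX-FAMA 4 h replicate 1 or SRDX-FAMA 4 h replicate 4.

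SPCH was lower than SRDX-SPCH for 31 members (background 5.38%) and higher for 1 (background 6.19%), with a median of −0.70. The lower members were 13 spindle, 4 checkpoint and 13 phragmoplast genes and MYB3R4 (−1.01 ± 0.17, adjusted p = 4.28e-04). The largest changes were those of DRP5A (−1.41 ± 0.24, adjusted p = 5.81e-04) and ATK1 (−1.36 ± 0.24, 7.50e-04), and the smallest adjusted p was that of MKK6 (−1.23 ± 0.17, 7.04e-05). The checkpoint genes were BUBR1 (−1.09 ± 0.20), OSD1 (−1.03 ± 0.19), BUB3.1 (−0.65 ± 0.13) and MAD2 (−0.57 ± 0.18, adjusted p = 0.0429). In this comparison 1 of 3 myrosin cell markers (TGG1, 0.50 ± 0.12, adjusted p = 0.00628) was called higher and 4 of 10 meristemoid and GMC markers lower. The APC/C activators CDC20.1, CDC20.2 and CCS52B, called lower in FAMA against SRDX-FAMA, were −0.56 ± 0.20, −0.51 ± 0.20 and −0.42 ± 0.17 here and were not called. CCS52A2 was the member called higher (0.27 ± 0.08, adjusted p = 0.0266), a call lost without SPCH 4 h replicate 4 or any of 4 SRDX-SPCH libraries (3 h replicates 2 and 3, 4 h replicates 3 and 4).

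The differences from NLS were present at 2 h of DEX, the first time point. No library was taken before DEX, so whether the lines differed before induction cannot be told. The stated times leave out the 2 h of protoplasting before the sort, so RNA was taken later than they say. The median over members of FAMA against NLS was −2.0 at 2 h, −1.87 at 3 h and −1.62 at 4 h. The spindle medians were −2.76, −2.93 and −2.45, the phragmoplast medians −2.0, −1.74 and −1.73, and the checkpoint medians −1.44, −1.32 and −0.85. For SPCH the medians over members were −1.36, −1.27 and −0.82. The interaction term tests a change of the difference between 2 h and 4 h. For this term edgeR called 0 members for FAMA and 0 for SPCH (background 0% for both), and DESeq2 called 0 for both. At an unadjusted edgeR p under 0.05 there were 3 members for FAMA (5.01% of all genes tested). For SPCH there were 10 (2.40% of all genes tested). No change of a difference with time passed the adjusted threshold with these libraries.

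**Figure D4:**
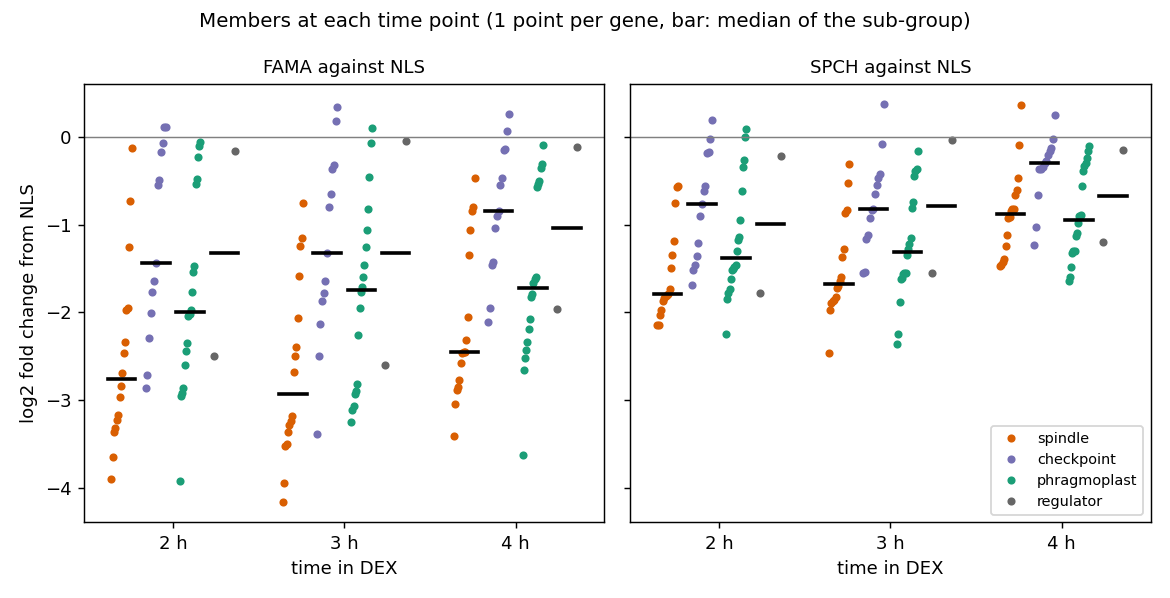
Log2 fold change from NLS of each member (1 point per gene, coloured by sub-group) after 2, 3 and 4 h in DEX, for the FAMA line and the SPCH line, with a bar at the median of the sub-group. In FAMA the spindle bars stand at −2.76, −2.93 and −2.45 and the checkpoint bars at −1.44, −1.32 and −0.85, and nearly all points of both lines lie below 0.

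Within lines, no member was called between time points. Over the 3 contrasts of time, edgeR called 0 members in each of the 5 lines (background 0.0042% in SRDX-SPCH and 0% elsewhere), and DESeq2 also called 0 in each line. Between 2 h and 4 h, 9 members had an unadjusted edgeR p under 0.05 in the control (4.80% of all genes tested) and 10 in SRDX-SPCH (6.03%). There were 3 such members in FAMA (14.1% of all genes), 1 in SPCH (7.27%) and 1 in SRDX-FAMA (1.77%). Over the same interval the members had a median change of −0.32 in the control line, 0.07 with FAMA, 0.15 with SPCH, 0.08 with SRDX-FAMA (0.07 without the library that went against its label) and 0.47 with SRDX-SPCH. The mean of the spindle genes at 2, 3 and 4 h was 4.57 ± 0.35, 4.46 ± 0.42 and 4.16 ± 0.25 log2 CPM in NLS, and 2.08 ± 0.33, 1.69 ± 0.79 and 1.97 ± 0.58 in FAMA (SD, 3 or 4 libraries each). The FAMA and NLS spindle means did not overlap at any time point, since the highest FAMA library had 2.61 and the lowest NLS library 3.86.

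SPCH and FAMA compared at single time points gave 0 called members at 2, 3 and 4 h in edgeR (background 0.00881%, 0.0133% and 0.00892%). At an unadjusted edgeR p under 0.05 there were 27, 23 and 29 members (4.84%, 8.72% and 4.87% of all genes tested). The medians over members were 0.69, 0.57 and 0.77. DESeq2 called 11, 9 and 10 members, all higher in SPCH. The share of all genes called by DESeq2 was not computed. At each single time point a fit had 7 or 8 libraries.

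Other genes of the same processes, from lists that hold no member, moved unevenly. B-type cyclins and CDKB kinases, which drive entry into mitosis, were called lower for 12 of 12 with FAMA (median −2.37), 10 with SPCH, 4 with SRDX-FAMA and 0 with SRDX-SPCH, and 8 were higher in SPCH than in FAMA. Their leading gene was CDKB2;1 (−3.64 ± 0.25, adjusted p = 8.71e-10). Other spindle, division plane and cell plate genes had 8 lower and 1 higher of 21 in FAMA (median −0.24), led by MAP65-4 (−2.69 ± 0.30, 1.48e-06). The APC/C core subunits, by contrast, had 2 lower of 11 (median −0.20), led by HBT (−0.47 ± 0.08, 3.25e-04). DNA replication licensing genes and PCNA had 1 lower of 11 (CDT1B, −1.81 ± 0.23, 9.35e-06). Other MYB3R and DREAM genes had 3 lower of 5, led by SOL2 (−1.14 ± 0.14, 6.93e-06).

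Markers of the cell types that the sort could hold were measured beside these. Meristemoid and GMC markers were called lower in FAMA for 8 of 10 genes (median −0.83), led by the GMC regulator FLP (−2.0 ± 0.19, adjusted p = 8.66e-08), for 4 in SPCH, for 1 in SRDX-SPCH and for 3 in SRDX-FAMA. Their summed level was 295 to 474 CPM in NLS, 163 to 294 in FAMA, 176 to 560 in SPCH, 266 to 383 in SRDX-SPCH and 216 to 425 in SRDX-FAMA, so that FAMA and NLS did not overlap. These markers moved with the division genes and their part in the result was not tested. Mature GC markers had 1 called higher (GORK, 0.48 ± 0.12, adjusted p = 0.0106) and 1 lower of 12 in FAMA, with summed levels of 1192 to 2499 CPM in NLS and 1254 to 2312 in FAMA. Myrosin cell markers had 0 of 3 called in FAMA and in SRDX-FAMA, but 2 higher in SPCH and 1 in SRDX-SPCH. Their summed level was 23072 to 45386 CPM in NLS (median 31717), 26038 to 67393 in FAMA (42234), 45875 to 84128 in SPCH (66943), 12468 to 46088 in SRDX-FAMA (20419) and 31854 to 58837 in SRDX-SPCH (46311). Without the library that went against its label, the highest SRDX-FAMA sum was 38638 CPM and the median 20179. The marker calls of SRDX-FAMA were not repeated without this library. The smallest adjusted p of a myrosin marker in FAMA was that of TGG1 (0.36 ± 0.15, 0.156). Mesophyll markers (0 of 6, RBCS1A 0.25 ± 0.28, 0.718) and companion cell markers (0 of 2, APL 0.10 ± 0.22, SUC2 −0.38 ± 0.41) were not called in FAMA. Mesophyll markers summed to 1267 to 9971 CPM in NLS and 1778 to 6809 in FAMA, and companion cell markers summed to 8.85 to 32.3 CPM in NLS and 4.13 to 53.6 in FAMA.

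The counting is not stated to use strand and the library kit does not mark it, so reads of genes that overlap cannot be told apart. Overlaps with a gene on the other strand concern 17 members, among them ATK5, AUR1, AUR2, AUR3, BUB3.1, CCS52B, KNOLLE, MPK4, RUNKEL and MYB3R1. Overlaps with a gene on the same strand concern RSW7, CCS52A2 and POK2. Apart from the CDC20 pair, RUNKEL has 5.33% of its 50-base exon sequences elsewhere in the genome, and 44 members have none there.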

How the data were processed

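mRNA of sorted cells was measured by bulk RNA-seq in 57 libraries. Reads were aligned by the authors to TAIR10 (STAR) and assigned to genes (HTSeq), and the deposited values are raw counts of 27655 genes. Tool versions, annotation release and strand setting are not given in the sources used here. 0 columns of the table were left out.

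Line, time point and replicate came from the sample records. The name of 1 count column shows the FAMA 4 h group but matches no library name. It was used without a replicate number, although FAMA 4 h replicate 4 is the record that no other column matches, and was left out of fits with a block. Members and gene lists were chosen with earlier results of these data known.

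Counts were filtered with filterByExpr (minimum count 10), scaled by TMM and tested with edgeR's quasi-likelihood test, with time point as an additive term in comparisons of lines, Benjamini-Hochberg adjustment over all genes and a threshold of 0.05. Time within lines, SPCH against FAMA at each time point and the interaction of line and time were fitted separately. Log2 CPM used a prior count of 2. Fold changes are fitted values with standard errors. The tools were edgeR 4.0.16 with limma 3.58.1, and DESeq2 1.42.0, run in R 4.3.3. The script was tested on simulated data.

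The rule named, per sub-group, the 4 members with the smallest adjusted p in FAMA against NLS, every member called between induced lines, over time, in SRDX-SPCH or above NLS, and 1 gene per other list. It named 42 members, and the other 7 (UVI4, CENP-C, CENH3, CCS52A1, ANP1, TES and MPK4) were added after their values were seen. The lists were APC/C core subunits, B-type cyclins and CDKB kinases, DNA replication licensing and PCNA, other spindle, division plane and cell plate genes, other MYB3R and DREAM genes, and markers of mature GCs, meristemoids and GMCs, myrosin cells, mesophyll and companion cells.

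As alternatives, the Wald test of DESeq2 replaced edgeR, its size factors replaced TMM, the low-count filter was dropped or raised to 10 counts in every library, the replicate number or the library letter entered as a block, all 57 libraries entered 1 fit, and each library was left out in turn. Exon sequences of 50 bases, promoters of 250 bases before the start and motifs were read from the RefSeq annotation of TAIR10.1, whose gene identifiers match those of the deposited counts.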

Additional observations from a re-analysis of the deposited data

Results flagged for a closer look

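In groups of 4 libraries, the mean level of each sub-group was searched for a library far from the rest of its group, over 60 group means. Chance flags about 1 in 20 such groups, and 4 were flagged. SRDX-FAMA 4 h replicate 1, with 41721496 counts, had a mean of 2.98 log2 CPM over all members, where the other 3 libraries of its group had 3.67 to 3.71. Its spindle mean was 3.00, with the nearest library at 3.80, and its phragmoplast mean was 3.21, with the nearest at 3.94. Without it, 20 members were called lower in SRDX-FAMA than in NLS and the median was −0.58. FAMA 2 h replicate 2 had a spindle mean of 1.59, with the nearest library of its group at 2.22. Without it, 39 members were called lower in FAMA than in NLS, with a median of −1.71. Both libraries carry the letter a in their library names, whose meaning is not given in the sources used here. Over all members, the library with this letter had the lowest mean of its group in 7 of the 9 groups that hold one. With the letter as a block, 40 members were called lower in FAMA and 30 in SRDX-FAMA than in NLS, with medians of −1.69 and −0.58.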

How the results depend on the processing

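Counts of called members kept within 1.5 times the main count in 6 of the 7 comparisons of lines under every alternative run. They were 36 to 41 in FAMA against NLS, 38 to 42 in SPCH, 20 to 30 in SRDX-FAMA, 22 to 34 in SPCH against FAMA, 36 to 41 in FAMA against SRDX-FAMA and 30 to 34 in SPCH against SRDX-SPCH. Leaving out 1 library gave 38 to 40, 36 to 40, 19 to 25, 21 to 29, 38 to 41 and 28 to 34 in the same order. In SRDX-SPCH against NLS the 0 calls became 3 with DESeq2, 1 (CENP-C) with at least 10 counts in every library, 9 with the library letter as a block and 0 to 3 with 1 library left out, namely 1 (AT2G36200) without NLS 4 h replicate 4 and 3 (CENP-C, AT2G36200 and MKK6) without SRDX-SPCH 4 h replicate 2. SPCH against FAMA at 2, 3 and 4 h had 0 calls, but 11, 9 and 10 with DESeq2, and 2 at 4 h (ATK1 and DRP5A) in the fit of all 57 libraries. The cause was not tested. The share of all genes called was computed for the main fits only. Medians over members moved by less than the spread between replicates (SD 0.332 log2 CPM), and no result reversed. This spread is one of mean levels and not of fold changes. It is as large as the median of SRDX-SPCH against NLS (−0.335), so it is a weak measure for that comparison. That median was −0.458 to −0.255 with 1 library left out and −0.364 to −0.299 in the other settings.

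Replicate numbers were not taken as pairs, because correlations of same-numbered libraries ranged from −0.656 to 0.755 over the 7 comparisons. Libraries of the same number carry different library letters. Correlations by letter were not computed, so a pairing by letter was not tested. With the replicate block, 39, 39, 20 and 0 members were called against NLS in FAMA, SPCH, SRDX-FAMA and SRDX-SPCH, 22 in SPCH against FAMA, 36 in FAMA against SRDX-FAMA and 32 in SPCH against SRDX-SPCH.

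Of 112 pairs of a named gene and a comparison, 95 kept their side of the threshold in all settings that tested them. With at least 10 counts in every library, only 104 of the 112 pairs were tested. Calls lost most often with 1 library left out were CDC20.2 (17 libraries) and MKK6 (15) in SPCH against FAMA and MAD2 (15) and HINKEL (11) in SPCH against SRDX-SPCH. OSD1 lost its call between SPCH and FAMA without any of 7 libraries, AUR3 without SPCH 2 h replicate 1 or 4 h replicate 3, and AT2G37420 without SPCH 2 h replicate 1. In the same comparison TPX2, PAKRP1L, AUR3, MKK6 and CDC20.2 lost their calls with the replicate block. PAKRP1, AT2G37420 and CDC20.2 lost theirs in the fit of all 57 libraries, and OSD1 with the library letter as a block. AT3G45850 lost its call without any of 8 libraries in SPCH against SRDX-SPCH and without SRDX-FAMA 2 h replicate 2 in FAMA against SRDX-FAMA, PANS1 without FAMA 3 h replicate 1, 2 or 3, and MAP65-1 without FAMA 3 h replicate 1 or 3.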
